A study of Mus musculus with 16 samples.

Results

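Mest, Sfrp5, Npr3, Bmp3, Sncg and Fgf1 are genes known to follow the growth of fat mass in mouse adipose tissue. Their expression was examined by RNA-sequencing in gonadal white adipose tissue (gWAT), the intra-abdominal fat depot beside the testis. These 6 genes were chosen by name, and all 6 were found among the 19373 genes of the table. Male Mboat7 flox/flox mice served as controls, and Mboat7 ASKO mice carried the same floxed alleles together with a Cre recombinase under the adiponectin promoter. This Cre is active in adipocytes, so other cells of the depot keep Mboat7, the gene of a lysophosphatidylinositol acyltransferase. Both genotypes were on the C57BL/6J background and received chow or a high-fat diet (HFD, D12492) for 20 weeks. Each of the 4 groups held 4 mice, with 1 library per mouse and 16 mice in all. The comparisons ask whether these genes differ with diet, with the loss of Mboat7 from adipocytes, and whether the effect of diet depends on genotype.

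White fat grows by enlarging its adipocytes and by recruiting new ones from progenitors, and each of these genes has a place in that biology. Mest is an imprinted gene, expressed from the paternal allele, whose product is a hydrolase-like protein of the endoplasmic reticulum. Sncg encodes gamma-synuclein, which is abundant in adipocytes and in peripheral neurons. Sfrp5, Bmp3 and Fgf1 encode secreted proteins: Sfrp5 is an inhibitor that binds Wnt ligands, Bmp3 is a divergent member of the bone morphogenetic protein (BMP) family, and Fgf1 is a fibroblast growth factor that is needed for remodelling of gonadal fat during overfeeding. Npr3 encodes the clearance receptor that removes natriuretic peptides, which are lipolytic hormones of the heart.

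Values are FPKM, fragments scaled to transcript length and to the fragments mapped, so levels can be compared between genes per length. The step between low FPKM values was estimated by a fit and corresponded to about 228000 to 403000 fragments per mouse. This would be a low depth, but the estimate was not tested. On that scale, and taking the longest coding transcript of each gene, the value of a mouse stood for about 116 to 479 fragments of Sncg, 75 to 223 of Mest and 78.7 to 270 of Npr3. It stood for only 9.2 to 36.6 fragments of Fgf1, 1.8 to 17.1 of Bmp3 and 0 to 25.0 of Sfrp5. Mboat7 itself was between 0 and 4.99 FPKM, and control and ASKO mice overlapped on both diets, so its deletion was not detectable in these values. Its means in control and ASKO mice were 3.16 and 1.07 FPKM on chow (log2 fold change -1.12, limma adjusted p = 0.983). On HFD they were 0.938 and 0.935 FPKM. At the protein level, the authors found MBOAT7 reduced in gWAT of ASKO mice on chow. The exons of Mboat7 overlap those of Tsen34 on the opposite strand. The adipocyte markers Fabp4 and Adipoq, which encode a fatty acid binding protein and adiponectin, averaged 8054 and 828 FPKM over the 16 mice, and none of 18 adipocyte markers was at 0 throughout a group. Of 10 epididymis and testis markers 1 was listed, Adam7, with at most 0.736 FPKM.

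The libraries were made with a directional kit, and how strand entered the counting is not given in the sources used here. Several values bear on it. Of the 50 genes with the highest mean FPKM, 44 (88%) have exons that overlap exons of another gene on the opposite strand, against 5067 (38.5%) of the 13147 genes tested. For 1004 pairs of a protein-coding gene and an annotated antisense gene whose exons overlap, both listed, the antisense row had the higher mean in 721 (71.8%). Of the 12 mitochondrial protein genes on the plus strand none was listed, while the 1 on the minus strand, mt-Nd6, was. The part of strand in the values below was not tested. Among the 6 genes, the exons of Mest overlap those of Copg2 on the opposite strand, and the exons of Npr3 overlap those of Gm5144, which was not among the listed genes. Sfrp5, Bmp3, Sncg and Fgf1 have no such overlap in the annotation, and no other row shares their locus in the table.

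The 6 genes covered a wide range of levels, with the same order at the top in every group. Sncg was the highest, at a median of 760 FPKM over 16 mice (range 483 to 1825), followed by Mest at 130 FPKM (89.6 to 208) and Npr3 at 82.6 FPKM (50.02 to 120). Every mouse of a group had more Sncg than any mouse of that group had Mest. Mest and Npr3 did not overlap in control mice on either diet, but did in ASKO mice on chow and on HFD. The lower 3 were Fgf1 at 13.5 FPKM (7.65 to 26.5), Sfrp5 at 7.50 FPKM (0 to 36.5) and Bmp3 at 3.48 FPKM (0.831 to 7.50). Fgf1 and Sfrp5 overlapped in all 4 groups. Within single mice, Fgf1 was above Sfrp5 in every control mouse on chow, and their order varied between the mice of each other group. Bmp3 lay below Fgf1 without overlap in all 4 groups, and overlapped Sfrp5 in all but the ASKO mice on chow. The spread between mice of one group was small for Mest and Npr3. Their within-group SDs of log2(FPKM + 1) were 0.25 and 0.36, where genes of a like level had medians of 0.45 and 0.50, while Sfrp5 had 1.32 against 0.83.

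**Figure D1:**
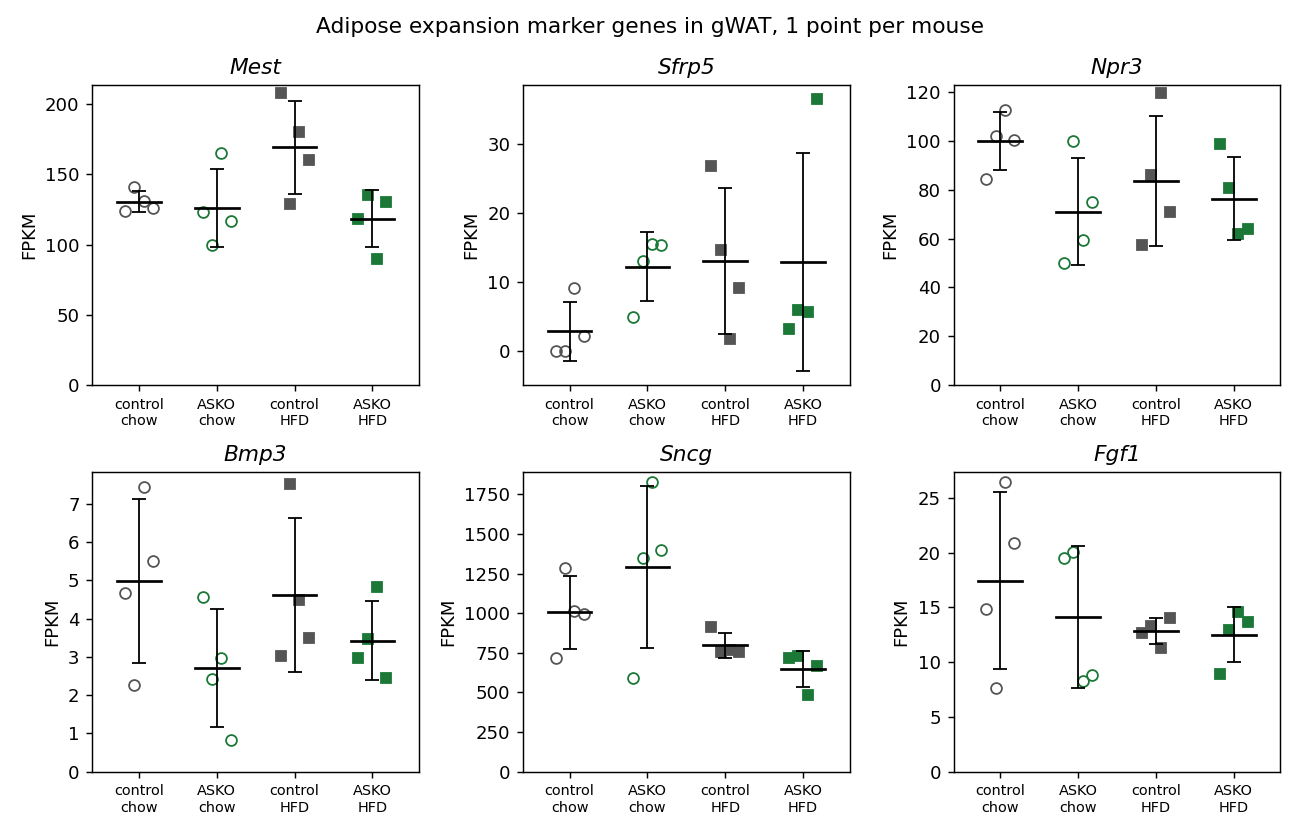
FPKM of the 6 genes in gWAT, with 1 panel per gene and 1 point per mouse (open circles chow, filled squares HFD, grey control, green ASKO). Horizontal lines give the mean and error bars the SD of 4 mice. For Sncg, the 4 ASKO mice on HFD lie between 483 and 730 FPKM, below the 4 control mice on HFD (752 to 914). The other genes have groups that overlap.

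No member passed the limits in any of the 7 contrasts tested with limma on log2(FPKM + 1), which were an adjusted p-value under 0.05 over all 13147 genes and an absolute log2 fold change above 0.5. By diet, 0 of 6 passed in control mice, where 2.91% of all tested genes did, 0 of 6 in ASKO mice (3.43% of all genes), and 0 of 6 over both genotypes (7.53% of all genes). By genotype, 0 of 6 passed on chow and 0 of 6 on HFD, where 0.00761% of all genes did on each diet. No member passed over both diets or in the interaction of diet and genotype, where 0% of all genes did. At an unadjusted p under 0.05 in limma, 1 of 6 members was counted for diet in control mice (Sfrp5, with 14.2% of all tested genes), for diet in ASKO mice (Sncg, 15%) and for diet over both genotypes (Sncg, 19.4%). By genotype, 1 of 6 was counted on chow (Sfrp5, with 4.8% of all genes) and on HFD (Mest, 5.15%), 0 of 6 over both diets (3.77%), and 1 of 6 in the interaction (Sfrp5, 6.29%). The count of 0 changed when a single mouse was left out, with array weights and with values scaled to the adipocyte markers, as given below. In simulated data, diet changes of 1 on the log2 scale over both genotypes were recovered for 23.6% of the changed genes. Those genes were drawn only above a set mean level, which Bmp3 and Sfrp5 did not reach. The within-group SDs of Mest and Npr3 were smaller than those of 99.4% and 96.6% of all tested genes. The share is thus not that of a single member, and a member that did not pass may still have changed.

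**Figure D2:**
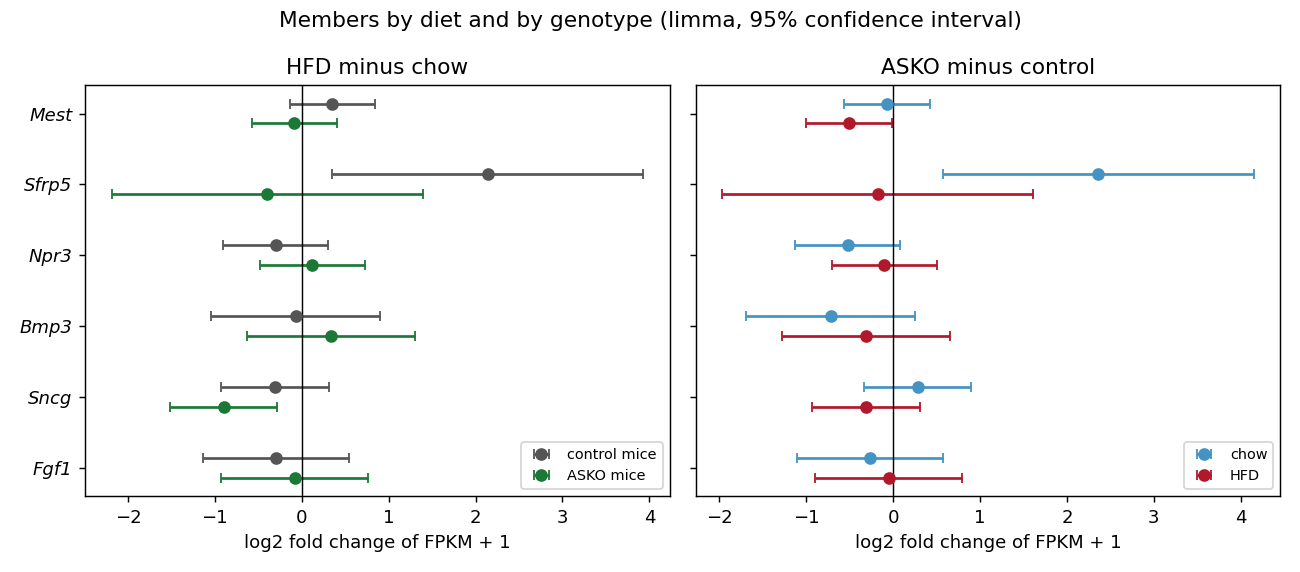
Log2 fold change of FPKM + 1 for each gene with its 95% confidence interval from limma, HFD minus chow on the left (grey control mice, green ASKO mice) and ASKO minus control on the right (blue chow, red HFD). The intervals of Sfrp5 are the widest, reaching from 0.35 to 3.93 for diet in control mice. The interval of Sncg lies below 0 for diet in ASKO mice. No gene passed after adjustment.

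Mest (ENSMUSG00000051855.15) lies on the plus strand of chromosome 6 from 30723547 to 30748465 (GRCm38, the assembly of mm10). Its values on chow were 124, 141, 131 and 126 FPKM in control mice and 123, 100, 165 and 117 FPKM in ASKO mice. On HFD they were 208, 129, 180 and 160 FPKM in control mice and 119, 135, 89.6 and 130 FPKM in ASKO mice. The control mice on HFD were the highest group, with 2 of its mice above every mouse of the other groups, but all groups overlapped. Diet gave a log2 fold change of 0.35 in control mice (95% CI -0.14 to 0.84, limma adjusted p = 0.55) and of -0.08 in ASKO mice (-0.58 to 0.41, limma adjusted p = 0.916). Over both genotypes the change was 0.13. On the unscaled values, its interval (-0.21 to 0.48) excludes a doubling by HFD of the values listed for Mest. These values may not be those of Mest RNA alone, since the strand of reads at this locus is uncertain, as given below. With values scaled to the adipocyte markers, Mest passed in control mice (1.04, limma adjusted p = 0.0373) and over both genotypes (0.92, limma adjusted p = 0.00401). On HFD, ASKO mice differed from control mice by -0.51 (95% CI -1.0 to -0.02, limma adjusted p = 0.952), and in 2 of 16 pairs the ASKO mouse was the higher (two-sided exact permutation test, p = 0.0857, adjusted p = 0.411 over 24 tests). On chow the difference between genotypes was -0.07 (-0.56 to 0.42).

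Copg2, a coat protein gene that is a neighbour of Mest in the imprinted cluster, gave a different picture. It lies on the minus strand from 30747554 to 30896794, and 912 of its exonic bases (chromosome 6, 30747554 to 30748465) are also the 3′ end of Mest. All 912 are annotated as untranslated region of Mest, and they make up 23.1% of the exonic bases of Mest and 17.8% of those of Copg2. In the table, the locus given for Mest runs from 30733505 to 30896739 and so spans both genes. Reads from the shared stretch can be told apart only by strand, and this makes the values of both rows uncertain.

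Copg2 was listed at 2.04 to 43.0 times the FPKM of Mest in the same mouse, and its mean over the 16 mice was 20.0 times that of Mest. On chow, Copg2 was at 1167, 287, 860 and 1092 FPKM in control mice and at 1078, 1206, 3345 and 706 FPKM in ASKO mice. On HFD, it was at 6073, 4455, 7748 and 4626 FPKM in control mice and at 2951, 2605, 2814 and 2512 FPKM in ASKO mice. Every control mouse on HFD was above every other mouse of the study, and on HFD the ASKO mice were all below the control mice. Copg2 rose with HFD over both genotypes by 1.97 on the log2 scale (SE 0.31, limma adjusted p = 0.000621), by 2.89 in control mice (limma adjusted p = 0.00121), and differed by 1.04 in ASKO mice (95% CI 0.10 to 1.97, limma adjusted p = 0.27). On HFD the ASKO mice differed from the control mice by -1.04 on the log2 scale (95% CI -1.97 to -0.11, limma adjusted p = 0.917), and the interaction was -1.86 (limma adjusted p = 0.655). The lower Copg2 in ASKO mice on HFD was known before it was set beside Mest, so it is given as a description. Groups on HFD without overlap in this direction were found for 1.7% of all tested genes. Over the 16 mice, after group means were subtracted, Mest and Copg2 had a Pearson r of 0.3 (exact permutation p = 0.285) and a Spearman rho of 0.315 (exact permutation p = 0.234), and r was 0.075 without the 2 mice farthest from the median of Mest. No relation of the 2 rows was resolved at the level of single mice, and with 16 mice its strength cannot be told.

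**Figure D3:**
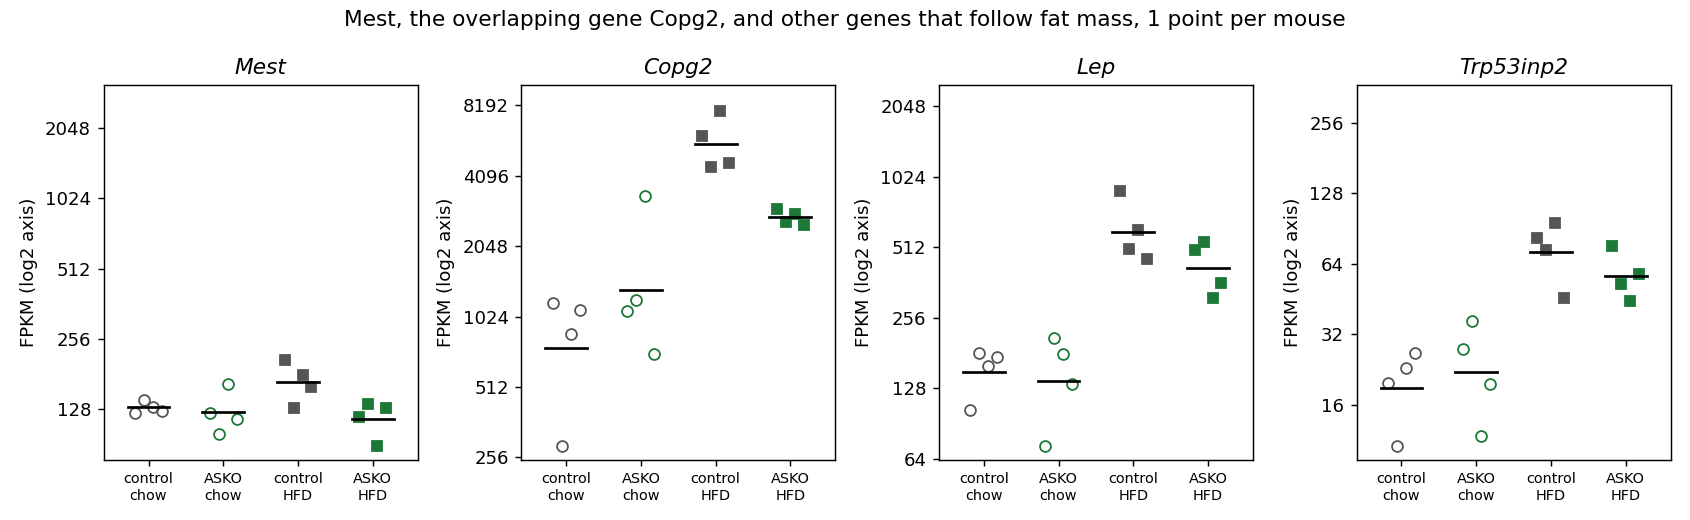
FPKM on log2 axes that all span the same fold, with 1 point per mouse (open circles chow, filled squares HFD, grey control, green ASKO) and lines at the geometric mean of 4 mice. Mest stays between 89.6 and 208 FPKM, while Copg2 runs from 287 to 7748 FPKM, with all control mice on HFD above all others. Lep and Trp53inp2 are higher on HFD than on chow in both genotypes without overlap.

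Lep and Trp53inp2, other genes known to follow fat mass, were set beside the 6 members. Lep, the gene of the satiety hormone leptin, was between 72.7 and 209 FPKM on chow and between 312 and 891 FPKM on HFD. Trp53inp2, a regulator of autophagy and adipogenesis, was between 10.7 and 36.7 FPKM on chow and between 44.6 and 95.8 FPKM on HFD. Both were higher on HFD without overlap in each genotype, as were 4.45% of all tested genes in control mice and 5.18% in ASKO mice. They rose over the 2 genotypes together, Lep by 1.78 on the log2 scale (SE 0.23, limma adjusted p = 9.27e-05) and Trp53inp2 by 1.59 (SE 0.26, limma adjusted p = 0.00089). The exons of Lep and Trp53inp2 overlap no gene on the opposite strand in the annotation. So the 2 groups of mice on HFD were above their chow groups for these 2 genes in the same libraries in which no member passed. By genotype on HFD, Lep differed by -0.52 (limma adjusted p = 0.978) and Trp53inp2 by -0.33 (limma adjusted p = 0.993), and both overlapped. In the whole list of 18 other genes that follow fat cell size or fat mass, 13 were tested, of which 2 rose with diet (Lep and Trp53inp2), 3 fell and 8 did not pass, against 4.49% of all genes higher and 3.04% lower. Their median log2 fold change was 0.09, beside 0.01 for all tested genes. The 3 lower genes were Agt (angiotensinogen, -2.57, limma adjusted p = 0.00355), Cav2 (caveolin 2, -0.87, limma adjusted p = 0.00921) and, named after its value was seen, Cav1 (caveolin 1, -0.73, limma adjusted p = 0.0148). Scaled to the adipocyte markers, Cav2 did not pass (-0.09, limma adjusted p = 0.769). The imprinted growth genes had 16 of 26 members tested, of which 3 rose (Copg2, Gatm and, named after its value was seen, Igf2r), 2 fell (Plagl1 and Nnat) and 11 did not pass, with a median of -0.18. Nnat, an imprinted gene of preadipocytes, was between 260 and 627 FPKM on chow and between 100 and 266 FPKM on HFD (log2 fold change -1.66, limma adjusted p = 6.38e-05), and its exons overlap Gm23134 on the opposite strand. Plagl1, an imprinted zinc finger gene, fell by 2.03 (limma adjusted p = 0.00271), with an overlapping gene as well. Gatm, of creatine synthesis, rose by 1.47 (limma adjusted p = 0.0312) from values near the floor, since it was listed at 0 in 6 of the chow mice, and it did not pass with 10 of the mice left out singly (limma adjusted p = 0.00822 to 0.064 over the mice).

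Sncg (ENSMUSG00000023064.4, minus strand of chromosome 14, 34370274 to 34374789) came nearest to a change. On chow it was at 718, 1286, 1016 and 998 FPKM in control mice and at 594, 1348, 1825 and 1396 FPKM in ASKO mice. HFD values were 914, 752, 767 and 753 FPKM in control mice and 718, 730, 483 and 666 FPKM in ASKO mice. Sncg was lowest in ASKO mice on HFD, and in each chow group 3 of the 4 mice were above all 8 mice on HFD. The diet difference was -0.60 on the log2 scale over both genotypes (95% CI -1.04 to -0.17, limma adjusted p = 0.0953), -0.90 in ASKO mice (-1.52 to -0.28, limma adjusted p = 0.118) and -0.31 in control mice (-0.93 to 0.31, limma adjusted p = 0.732). The difference between those last 2 values was not past the limits either (-0.59, limma adjusted p = 0.862). The outcome was sensitive to 1 library, the ASKO mouse on chow with replicate number 0, which had 594 FPKM. Without it, Sncg passed in ASKO mice (-1.23, limma adjusted p = 0.00711) and over both genotypes (-0.77, limma adjusted p = 0.00578). With array weights, which give less weight to variable libraries, it also passed in ASKO mice (-0.95, limma adjusted p = 0.0468) and over both genotypes (-0.64, limma adjusted p = 0.037). Scaled to the adipocyte markers, the difference over both genotypes turned to 0.18 (limma adjusted p = 0.485). On HFD, all ASKO mice were below all control mice, which is 0 of 16 pairs with the ASKO mouse higher (difference -0.31, exact permutation test, two-sided p = 0.0286, which is the lowest value for 4 against 4, adjusted p = 0.411 over 24 tests). This holds for 1.7% of all tested genes in that direction, and limma gave an adjusted p of 0.993. On chow, the genotypes differed by 0.28 in the other direction, with 12 of 16 pairs higher in ASKO mice. Sncg is an adipocyte transcript, and its diet difference was set beside the adipocyte markers. Of 18 such markers 9 were lower on HFD over both genotypes (3.04% of all tested genes), 0 were higher (4.49%) and 9 did not pass. Their median log2 fold change was -0.82. Of neuron and Schwann cell markers, which Sncg-expressing nerves would carry, 3 of 10 were tested and 0 passed, with a summed level of 0 to 14.1 FPKM in a mouse.

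Sfrp5 (ENSMUSG00000018822.7, minus strand of chromosome 19, 42197971 to 42202252) showed the largest differences and the widest errors. On chow it was at 0, 0, 9.09 and 2.14 FPKM in control mice and at 4.89, 13, 15.5 and 15.3 FPKM in ASKO mice. On HFD it was at 26.8, 14.6, 1.77 and 9.06 FPKM in control mice and at 3.22, 5.95, 5.68 and 36.5 FPKM in ASKO mice. Control mice on chow were thus the lowest group, with 2 mice listed at 0. ASKO mice on chow were higher than controls by 2.36 on the log2 scale (95% CI 0.57 to 4.15, limma adjusted p = 0.908), in 15 of 16 pairs (two-sided exact permutation test, p = 0.0571, adjusted p = 0.411 over 24 tests). Control mice on HFD were higher than control mice on chow by 2.14 (0.35 to 3.93, limma adjusted p = 0.232), in 13 of 16 pairs. Both comparisons use the same 4 control mice on chow, and they are not 2 separate observations. In ASKO mice, the diet difference was -0.40 (-2.19 to 1.39), or -1.07 without the mouse at 36.5 FPKM, and the genotype difference on HFD was -0.18, or -0.85 without that mouse. The interaction was -2.54 (limma adjusted p = 0.792). The interval for genotype on HFD, -1.97 to 1.61, holds large differences in either direction. With values scaled to the adipocyte markers, Sfrp5 passed for diet in control mice (2.83, limma adjusted p = 0.0404) and over both genotypes (1.66, limma adjusted p = 0.0372).

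The Wnt list, in which Sfrp5 acts as an inhibitor, held 35 genes, among them ligands, receptors and secreted inhibitors, and 18 were tested. By diet over both genotypes 0 rose (4.49% of all tested genes), 2 fell (3.04%) and 16 did not pass. The median log2 fold change of the list was 0.05. The 2 that fell were Tcf7l2, a transcription factor that acts with beta-catenin at Wnt targets, and Fzd4, a Wnt receptor. Tcf7l2 was between 27.2 and 81.6 FPKM on chow and between 3.37 and 23.3 FPKM on HFD (-1.58, limma adjusted p = 0.00334). Fzd4 was between 36.2 and 60.9 FPKM on chow and between 19.8 and 38.0 FPKM on HFD (-0.78, limma adjusted p = 0.0145). Neither passed with values scaled to the adipocyte markers, where Tcf7l2 was at -0.80 (limma adjusted p = 0.0729) and Fzd4 at 0.01 (limma adjusted p = 0.982). The related inhibitor Sfrp1 was at 0 to 3.24 FPKM on chow and at 1.28 to 4.22 FPKM on HFD (0.78, limma adjusted p = 0.219).

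Npr3 (ENSMUSG00000022206.6, minus strand of chromosome 15, 11839896 to 11907287) was the steadiest of the members beside Mest. On chow it was at 84.4, 102, 113 and 100 FPKM in control mice and at 50.02, 100, 59.5 and 74.8 FPKM in ASKO mice. The values under HFD were 57.5, 86.2, 120 and 70.9 FPKM in control mice and 98.7, 80.8, 62.0 and 64.0 FPKM in ASKO mice. All 4 groups overlapped, and the lowest mean was in ASKO mice on chow, at 71.1 ± 21.9 FPKM (SD, n = 4), against 99.95 ± 11.8 FPKM in control mice on chow. That difference was -0.53 on the log2 scale (95% CI -1.13 to 0.08, limma adjusted p = 0.983), with 1 of 16 pairs higher in ASKO mice (exact permutation test, p = 0.0571, adjusted p = 0.411 over 24 tests). By diet the difference was -0.09 over both genotypes, with an interval of -0.51 to 0.34 that excludes a doubling or a halving on the unscaled values. Scaled to the adipocyte markers, Npr3 turned to a positive difference and passed in ASKO mice (1.01, limma adjusted p = 0.0411) and over both genotypes (0.70, limma adjusted p = 0.0278). Of its signalling list of 15 natriuretic peptide genes 9 were tested. By diet over both genotypes 0 rose (4.49% of all tested genes), 1 fell (3.04%) and 8 did not pass (median 0.26). The 1 was Pde3b, a phosphodiesterase of insulin's antilipolytic action, at 35.9 to 98.5 FPKM on chow and 16.6 to 41.2 FPKM on HFD (-1.17, limma adjusted p = 0.00347), which did not pass when scaled to the adipocyte markers (-0.38, limma adjusted p = 0.286). The guanylyl cyclase receptors that Npr3 competes with were low: Npr1 was between 0 and 4.10 FPKM and Npr2 between 0 and 2.43 FPKM. Npr3 was above both in every mouse, and both have antisense genes that overlap their exons.

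Bmp3 (ENSMUSG00000029335.5, plus strand of chromosome 5, 98854415 to 98884396) was the lowest member. On chow it was at 4.66, 2.27, 7.44 and 5.50 FPKM in control mice and at 4.57, 2.43, 2.97 and 0.831 FPKM in ASKO mice. HFD gave values of 3.03, 7.50, 4.48 and 3.49 FPKM in control mice and 2.96, 3.47, 4.83 and 2.44 FPKM in ASKO mice. Every group overlapped every other. The diet difference over both genotypes was 0.13 (95% CI -0.55 to 0.82, limma adjusted p = 0.893), and ASKO mice differed from controls by -0.72 on chow (-1.69 to 0.25) and by -0.31 on HFD (-1.28 to 0.66). Of 32 listed BMP ligands, receptors, inhibitors and targets 20 were tested. With diet 0 rose (4.49% of all tested genes), 3 fell (3.04%) and 17 did not pass (median -0.31). Chrdl1, a secreted BMP inhibitor, and Smad5, an intracellular mediator of BMP signals, were among the 3. Chrdl1 was between 12.1 and 52.0 FPKM on chow and between 2.27 and 25.7 FPKM on HFD (-1.62, limma adjusted p = 0.0108). Smad5 had a change of -0.99 (limma adjusted p = 0.0488), and its adjusted p ran from 0.0342 to 0.094 with each mouse left out. Scaled to the adipocyte markers, neither Chrdl1 (-0.83, limma adjusted p = 0.114) nor Smad5 (-0.20, limma adjusted p = 0.674) passed. Bmpr1a, a type I receptor, was between 2.44 and 10.7 FPKM and differed by 0.18 by diet (limma adjusted p = 0.823).

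Fgf1 (ENSMUSG00000036585.15, minus strand of chromosome 18, 38838673 to 38929472) differed by less than its spread in every comparison. On chow it was at 14.8, 7.65, 26.5 and 20.9 FPKM in control mice and at 19.5, 20.0, 8.29 and 8.79 FPKM in ASKO mice. On HFD it was at 12.7, 13.3, 11.3 and 14.1 FPKM in control mice and at 8.88, 13, 14.6 and 13.6 FPKM in ASKO mice. The means of the HFD groups were close, 12.8 ± 1.18 FPKM in control mice and 12.5 ± 2.51 FPKM in ASKO mice (SD, n = 4 each), and the chow groups were more spread, with SDs of 8.07 and 6.49 FPKM. The diet difference over both genotypes was -0.19 (95% CI -0.78 to 0.41, limma adjusted p = 0.806), and its upper bound excludes a doubling on HFD on the unscaled values. Scaled to the adipocyte markers, the difference turned to 0.60 (SE 0.325, limma adjusted p = 0.158), and a doubling is then not excluded. Of 18 FGF ligands and receptors 11 were tested. By diet 0 rose (4.49% of all tested genes), 3 fell (3.04%) and 8 did not pass (median -0.14). Fgf10, a ligand that acts on preadipocytes, was between 39.4 and 85.7 FPKM on chow and between 12.2 and 28.1 FPKM on HFD (-1.35, limma adjusted p = 0.000955). Fgfrl1, a receptor without a kinase, changed by -1.04 (limma adjusted p = 0.0461) and Fgf2 by -0.69 (limma adjusted p = 0.0309), and for both the adjusted p passed 0.05 when some single mice were left out, up to 0.0973 and 0.0674. None of the 3 passed when scaled to the adipocyte markers, where Fgf10 was at -0.56 (limma adjusted p = 0.128), Fgfrl1 at -0.25 (limma adjusted p = 0.521) and Fgf2 at 0.10 (limma adjusted p = 0.753). Fgf2 shares its locus with Nudt6 on the opposite strand. The receptor Fgfr1 was between 1.56 and 9.17 FPKM (-0.64, limma adjusted p = 0.323).

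By genotype on HFD, all 6 members had a log2 fold change below 0, from -0.51 (Mest) to -0.05 (Fgf1), with a median of -0.24, where 48.2% of all tested genes were below 0 and the median of all genes was 0.02. None passed, and with values scaled to the adipocyte markers Npr3 and Fgf1 lay above 0 (0.06 and 0.11). On chow 4 of 6 were below 0, with Sfrp5 and Sncg above. In the related lists, 0 genes passed by genotype on HFD or on chow. Among markers of other cells, 0 of 14 progenitor and fibroblast markers and 0 of 20 macrophage markers passed by genotype on HFD. Of the 20 macrophage markers, 18 were above 0 and 2 below, with a median of 0.39. The authors, with their own test, reported higher Cd68 and Itgax in gWAT of ASKO mice on HFD. Here Itgax was at 34.6 to 47.4 FPKM in ASKO mice and 8.51 to 26.3 FPKM in control mice on HFD. Cd68 was at 52.9 to 98.7 FPKM and 23.8 to 58.7 FPKM in the same groups. The mean log2(FPKM + 1) of the progenitor and fibroblast markers was 3.69 to 3.82 in ASKO mice and 3.28 to 3.68 in control mice. These 2 ranges were only just apart, at 3.687 against 3.68, and the difference was not tested. The mean of the macrophage markers was 5.85 ± 0.09 in ASKO mice and 5.43 ± 0.24 in control mice (SD, n = 4), with overlap. The part of these markers in the values of the members was not tested.

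The RNA levels of adipocyte and macrophage markers moved with diet at the same time. The mean log2(FPKM + 1) of the 18 adipocyte markers was 6.25 ± 0.21 in control and 6.28 ± 0.26 in ASKO mice on chow, and 5.56 ± 0.33 and 5.39 ± 0.14 on HFD (SD, n = 4). Of 20 macrophage markers 17 rose (4.49% of all tested genes) and 0 fell (3.04%), with a median log2 fold change of 2.25. Their summed level was 280 to 490 FPKM in a mouse on chow and 1748 to 3338 FPKM on HFD. Of 14 progenitor and fibroblast markers 2 rose, of 11 endothelial markers tested 0 passed, and of 7 mesothelial markers tested 1 fell, with a summed level of 14.3 to 39.9 FPKM on chow and 1.65 to 30.0 FPKM on HFD. In bulk tissue, fewer cells of a type and less RNA per cell cannot be told apart. The part of this shift in the values of the members was not tested.

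When each mouse was scaled to its adipocyte markers, the diet change of every gene moved up together, and the median of all tested genes went from 0.01 to 0.80. On that scale 3 members passed over both genotypes, Mest (0.92, limma adjusted p = 0.00401), Sfrp5 (1.66, limma adjusted p = 0.0372) and Npr3 (0.70, limma adjusted p = 0.0278), along with 3987 genes in all. Relative to the median of all genes, Mest was at 0.13, Sfrp5 at 0.86 and Npr3 at -0.10, and Sncg was at -0.61, Fgf1 at -0.20 and Bmp3 at 0.13. Lep and Trp53inp2 were at 1.77 and 1.58 above the median. These distances are the same on both scales by construction, since the scaling shifts every gene of a mouse alike. Upper-quartile scaling moved the median of all genes to 0.11, and no member passed there.

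**Figure D4:**
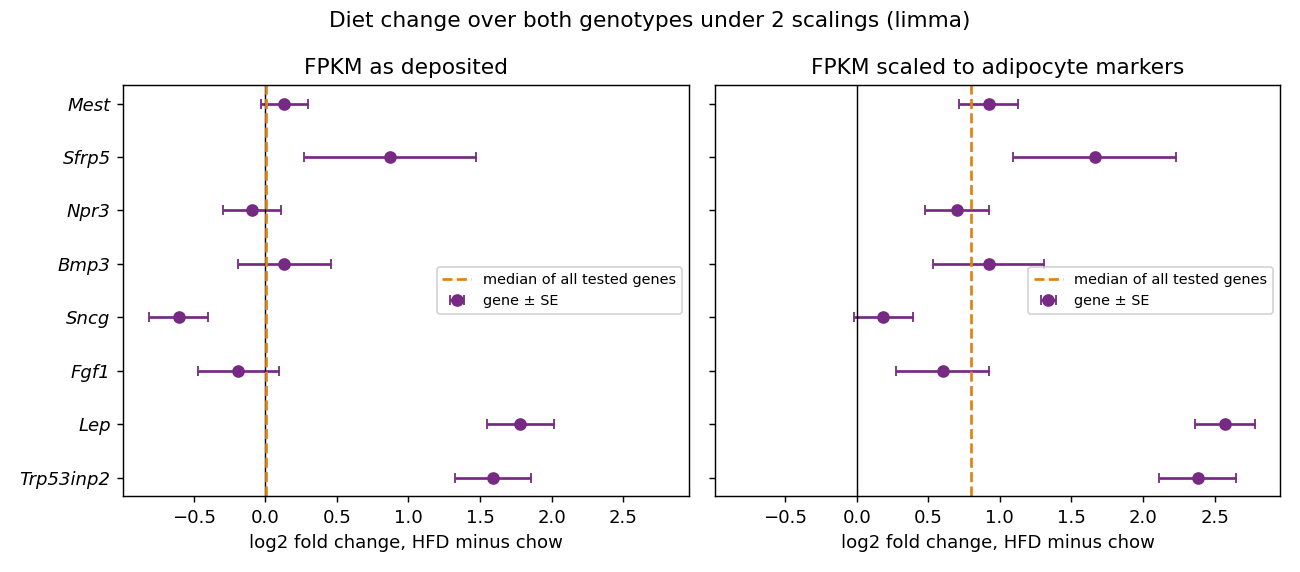
Log2 fold change by diet over both genotypes (HFD minus chow, limma, bars give the SE) for the 6 members and for Lep and Trp53inp2, with FPKM as deposited on the left and scaled to the adipocyte markers of each mouse on the right. The dashed line marks the median of all tested genes, at 0.01 and at 0.80. The scaling shifts every gene alike, so the distances to that line are the same on both sides by construction. Lep and Trp53inp2 lie 1.77 and 1.58 above it.

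After group means were subtracted, 15 pairs of members were correlated over 16 mice, and none had a Benjamini-Hochberg adjusted p under 0.05. The lowest exact permutation p for Pearson r was that of Bmp3 and Fgf1 (Pearson r = 0.642, p = 0.0365, adjusted p = 0.447, Spearman rho = 0.491, permutation p = 0.113), and r was 0.383 without the 2 mice farthest from the median of Bmp3. Mest and Sncg had r = 0.444 (exact permutation p = 0.188) and rho = 0.574 (exact permutation p = 0.0323, adjusted p = 0.399), with r = 0.186 without the 2 farthest mice of Mest. Sncg correlated negatively with Bmp3 (r = -0.519, exact permutation p = 0.134) and with Fgf1 (r = -0.532, exact permutation p = 0.126), neither past adjustment. With values scaled to the adipocyte markers, Bmp3 and Fgf1 had r = 0.77 (exact permutation p = 0.00658, adjusted p = 0.0987), rho = 0.685 (exact permutation p = 0.0153, adjusted p = 0.23) and r = 0.591 without the 2 farthest mice. In the 8 mice on HFD alone, Mest and Sncg had r = 0.818 (exact permutation p = 0.0191, adjusted p = 0.148) and rho = 0.929 (exact permutation p = 0.0104, adjusted p = 0.156), with r = 0.653 without the 2 farthest mice. Mest and Bmp3 had r = -0.832 there (exact permutation p = 0.0295, adjusted p = 0.148) and rho = -0.643 (exact permutation p = 0.125), with r = -0.193 without the 2 farthest mice. All values of a mouse come from 1 library, so they share its depth and its mixture of cells. As a description with no test, the gene most like each member over the 16 mice, among about 6038 genes with a mean of at least 5 FPKM, was Atxn10 for Mest (r = 0.853), Fcgr3 for Sncg (0.939), Clpx for Sfrp5 (0.877), Nipa2 for Bmp3 (0.929), Gm13709 for Fgf1 (0.836) and Lpgat1 for Npr3 (0.916). No member was among the 3 most like genes of another.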

How the data were processed

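The libraries came from gWAT of 16 male mice, 1 per mouse. Per the labels and methods, the authors trimmed the reads, used STAR to align them to mm10 with GENCODE as guide and made the deposited FPKM values with Cufflinks, 1 column per mouse, without pooling. The GENCODE release and the strand setting of the counting are not given in the sources used here. Cuffdiff is named in the submitters' notes, but no test of it was used.

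FPKM values were used as deposited. The 22 gene names changed by a spreadsheet were restored, and of 40 rows with a repeated symbol 20 were dropped. Gene identifiers matched GENCODE M21 (GRCm38) for 99.6%, version ignored, and exon overlaps were taken from it. The members and lists were chosen with earlier results of these data known.

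The 4 groups were fitted together in limma 3.58.1 (R 4.3.3) on log2(FPKM + 1) with an intensity trend, for the 13147 genes that reached 1 FPKM in 4 or more mice. A fold change on this scale understates that of low genes. The 7 contrasts were taken, with Benjamini-Hochberg adjustment over all genes in each; a gene passed when its adjusted p was under 0.05 and its log2 fold change beyond 0.5 in either direction. Single genes were tested by exact permutation (two-sided) over 70 splits, adjusted over 24. Correlations used exact permutation within groups. The limma step was tested on simulated data for diet over both genotypes, with 200 changed genes drawn only above a set mean level. It recovered 1.6% of the genes changed by 0.5 on the log2 scale and 23.6% of those changed by 1. Of those changed by 1.5 it recovered 62.8%, and of those changed by 2 it recovered 75.2%. Depth was read from the steps of low values in 1450 genes with 1 transcript: 50.3% to 88.1% of them lay within 0.2 of a whole step, against 40% for even values, so fragment numbers are approximate.

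The genes named are the members, partners set by name, up to 4 genes per list that passed over both genotypes or both diets, and for each member the most like gene. Some genes of these lists are counted but not reported here by name. Alternatives were a pseudocount of 0.1, other filters, 3 scalings, only the groups compared, array weights, no trend, robust estimation, the replicate number as a block, no limit on the fold change and leaving out each mouse. Plots were made with matplotlib 3.10.9 in Python 3.11.15.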

Additional observations from a re-analysis of the deposited data

Results flagged for a closer look

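Of 60 combinations of a named gene and a group of 4 mice, 3 held 1 mouse apart from its group, and about 3.0 would do so by chance. Sfrp5 was at 36.5 FPKM in 1 ASKO mouse on HFD, while the rest of that group lay between 3.22 and 5.95 FPKM. Sncg was at 914 FPKM in 1 control mouse on HFD, while the rest lay between 752 and 767 FPKM, and that control group was above all ASKO mice on HFD with or without this mouse. Npr2 was at 1.61 FPKM in 1 ASKO mouse on HFD and was listed at 0 in the rest of that group. Why these mice stand apart was not tested.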

How the results depend on the processing

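The number of members past the limits was 0 in each contrast as reported. It was 2 (Mest and Sfrp5) in control mice, 1 (Npr3) in ASKO mice and 3 (Mest, Sfrp5 and Npr3) over both genotypes for diet with scaling to adipocyte markers, which by construction raises every gene on HFD. With array weights it was 1 (Sncg) in ASKO mice and 1 over both genotypes. With each mouse left out in turn it was between 0 and 1 for diet in ASKO mice and for diet over both genotypes, and 0 for the other contrasts. The number of comparisons with an exact p under 0.05 (1 of 24) was the same on FPKM, and the number of member pairs with an adjusted p under 0.05 (0 of 15) was the same in HFD mice alone, with adipocyte scaling and without the 2 farthest mice. With adipocyte scaling, the sign of the log2 fold change turned for diet in ASKO mice in Mest (0.80), Sfrp5 (0.49) and Fgf1 (0.81), for diet in control mice in Npr3 (0.39), Bmp3 (0.62), Sncg (0.38) and Fgf1 (0.39), for diet over both genotypes in Npr3 (0.70), Sncg (0.18), Fgf1 (0.60), Fzd4 (0.01) and Fgf2 (0.10), for genotype on HFD in Npr3 (0.06) and Fgf1 (0.11), and for genotype over both diets in Sncg (0.05). Other turns were in Mest for diet in ASKO mice (0.13 with quantile normalization, 0.14 with upper-quartile scaling), Npr3 for diet over both genotypes (0.06 with upper-quartile scaling), Fgf1 for diet in ASKO mice (0.13 with upper-quartile scaling) and Sncg for genotype over both diets (0.02 with quantile normalization, 0.03 with array weights). With each mouse left out, values crossed 0 for Mest by diet in ASKO mice (-0.19 to 0.05) and by genotype on chow (-0.21 to 0.03), Sfrp5 by genotype on HFD (-0.85 to 0.29), Npr3 by diet in ASKO mice (-0.03 to 0.30), by diet over both genotypes (-0.18 to 0.00) and by genotype on HFD (-0.26 to 0.09), Bmp3 by diet in control mice (-0.33 to 0.13) and over both genotypes (-0.02 to 0.25), Sncg by genotype over both diets (-0.12 to 0.15), and Fgf1 by diet in ASKO mice (-0.28 to 0.11), by genotype on HFD (-0.13 to 0.09) and in the interaction (-0.01 to 0.54). Alternatives for the partner genes were added after the data were seen. Of these, the diet changes of Lep (1.63 to 2.57), Trp53inp2 (1.45 to 2.38) and Copg2 (1.74 to 2.75) passed in every alternative run. With adipocyte scaling, those of Tcf7l2, Fzd4, Pde3b, Chrdl1, Smad5, Fgf10, Fgfrl1, Fgf2 and Cav2 did not pass. Those of Smad5, Fgfrl1, Fgf2 and Gatm were also lost under other alternatives and with 8 to 13 of the mice left out singly. The cause of these changes was not tested.

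The replicate numbers of the mice come from their titles and stand for different animals. Over all genes, the same-numbered mice of 2 groups had deviations with a median r of 0.007 over 24 pairs (range -0.187 to 0.152, 1 of them over 0.1). A shared factor that acts on some genes or some mice cannot be told from this. With the replicate block, 0 members passed in each contrast, Sncg over both genotypes was at -0.60 (limma adjusted p = 0.106), and 928 genes passed by diet over both genotypes instead of 990. If depth was as low as estimated, it limits Sfrp5, Bmp3 and Fgf1 most.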
